A study of Drosophila melanogaster with 16 samples.

Results

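The metal-handling genes described here are 10 genes chosen by name: the metallothionein genes MtnA, MtnB, MtnC, MtnD and MtnE, the metal-responsive transcription factor gene MTF-1, the copper importer gene Ctr1B, the ferritin chain genes Fer1HCH and Fer2LCH, and the divalent metal transporter gene Mvl (Malvolio). All 10 are among the 17873 genes counted, and all 10 passed the filter on low counts that left 9801 genes for testing.

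The data are read counts from polyadenylated RNA of Drosophila melanogaster larval midguts, in 16 libraries that fall into 4 groups of 4 biological replicates. Every larva carried mex-GAL4, a transgene that drives expression in enterocytes, the absorptive cells of the gut. In control larvae (mex-GAL4 / attP40) the other parent gave an empty attP40 landing site, and in Hnf4i larvae (mex-GAL4 / UAS-Hnf4 RNAi) it gave a hairpin against the nuclear receptor gene Hnf4 placed in that site, so that the comparison rests on a single hairpin and on fathers of 2 stocks. Larvae were reared at 25 °C in vials of 40 embryos on a diet of yeast without added sugar, and each library pooled 30 midguts on day 3 after egg laying (late in the second instar, L2) or 10 midguts on day 4 (early in the third instar, L3). Day, instar and the number of midguts per library therefore change together and cannot be told apart.

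Metallothioneins are small, cysteine-rich proteins that bind copper, zinc and cadmium and so buffer these metals inside the cell. In Drosophila, MTF-1 binds metal response elements and turns on metallothionein genes under metal load, and it turns on Ctr1B, which imports dietary copper, when copper is scarce. Insect ferritin is a secreted-pathway iron store built of heavy chains (Fer1HCH), which oxidise the iron, and light chains (Fer2LCH), and Mvl belongs to the NRAMP family, which moves iron and manganese across membranes.

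In the BDGP6 build the metallothionein genes lie on chromosome 3R. MtnC (FBgn0038790, 20360308 to 20360634, plus strand), MtnB (FBgn0002869, 20503102 to 20503746, minus strand), MtnE (FBgn0262146, 20534021 to 20534704, minus strand) and MtnD (FBgn0053192, 20534962 to 20535301, plus strand) lie within the same stretch, with 142467 bases between MtnC and MtnB and 30274 bases between MtnB and MtnE. MtnE and MtnD point away from each other with 257 bases between them. MtnA (FBgn0002868, 9783407 to 9784370, minus strand) lies apart from that cluster on the same arm. Fer1HCH (FBgn0015222, 30385573 to 30388178, minus strand) and Fer2LCH (FBgn0015221, 30387804 to 30390584, plus strand) overlap by 375 bases at their 5′ ends. Ctr1B (FBgn0062412, 8317612 to 8319205, plus strand) and Mvl (FBgn0011672, 21051383 to 21060800, minus strand) are on 3R as well, and MTF-1 (FBgn0040305, 9430312 to 9439490, plus strand) is on 3L. The library kit kept strand, but whether the counting used it is not given in the sources used here, so reads from the stretch shared by the ferritin genes, and reads shared by similar metallothionein transcripts, may be unevenly assigned. Ctr1B also overlaps the exons of lncRNA:CR45215 on its own strand (at most 12.5 CPM in any library), and of Poxm on the other strand.

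The libraries held 44546248 to 83418453 counts. Levels are given as CPM, read counts relative to library size after scaling by TMM, the trimmed mean of M-values. Hnf4 itself lay at 88.0 to 94.0 CPM in control against 45.7 to 50.6 CPM in Hnf4i libraries of day 3, and at 124 to 134 against 58.8 to 68.3 CPM on day 4, which leaves 52.6 and 50.6% of its control level. Enterocyte markers (mex1, Myo31DF, nub, betaTry and lambdaTry) summed to between 1833 and 3627 CPM in every library. The summed level of 7 fat body markers was 11.7 to 15.7 CPM in control against 18.1 to 41.6 CPM in Hnf4i libraries on day 3, groups that did not overlap. That difference lay in apolpp (means of 4.18 against 21.6 CPM). Lsp1gamma went the other way (9.05 against 5.68 CPM), the rest were near 0, and 0 of the 6 markers tested were called on day 3. On day 4 the sum was 23.3 to 36.5 CPM in 3 control libraries, but 141 CPM in control day 4 replicate 3 and 1116, 855 and 2823 CPM in Hnf4i day 4 replicates 1, 2 and 4, against 12.8 CPM in replicate 3 of that group. Of those markers 6 passed the count filter, and the larval serum protein genes Lsp1beta and Lsp1gamma held the largest part in the Hnf4i day 4 libraries. Markers of Malpighian tubules (Uro, Irk2 and Irk3) summed to 43.9 CPM in Hnf4i day 4 replicate 2 and to at most 0.180 CPM in each of the others. Hemocyte markers (Hml, NimC1, Pxn, Col4a1 and vkg) summed to 25.5 to 31.4 CPM in control against 32.2 to 70.5 CPM in Hnf4i libraries on day 3, again apart, and to 6.51 to 18.1 against 9.72 to 57.0 CPM on day 4. The day 3 difference lay mostly in Col4a1 (means of 13.4 against 26.8 CPM) and vkg (10.5 against 17.1 CPM). The means of Hml, NimC1 and Pxn differed little in CPM, and 0 of the 5 hemocyte markers were called on day 3. On day 4, 3 of them were called higher and 1 lower in Hnf4i midguts. Visceral muscle markers (Mhc, Tm1, Act57B, up and wupA) summed to 4540 to 5104 CPM in control against 3003 to 4230 CPM in Hnf4i libraries on day 4, where Mhc was called lower (-0.58, adjusted p = 0.0159), and overlapped on day 3. The sums of these markers thus move with the comparisons of Hnf4i with control midguts, while single markers did not all move together. Among Hnf4i day 3 libraries the fat body and hemocyte sums were both lowest in replicate 1 and both highest in replicate 3. Control day 4 replicate 3 and Hnf4i day 4 replicates 1, 2 and 4 had the highest fat body sums. They are called the libraries with fat body transcripts below, although the others were not free of them. The part of these markers in the values below was not tested beyond leaving out those libraries. No day 3 library was left out for its markers.

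Fer2LCH was the most abundant of the 10 transcripts per kb in every group. Per kb of exon, Fer2LCH stood at 861 ± 42.1 CPM and Fer1HCH at 583 ± 36.2 CPM in control midguts on day 3, followed by MtnA at 518 ± 39.9 CPM per kb. MtnD (186 ± 27.6 CPM per kb) and MtnE (172 ± 20.4 CPM per kb) came next and did not differ beyond their spread. Ctr1B followed at 74.0 ± 9.75 CPM per kb. MtnB (31.2 ± 11.3 CPM per kb) and Mvl (27.4 ± 1.92 CPM per kb) overlapped in that group, and MTF-1 (12.9 ± 0.685 CPM per kb) and MtnC (5.20 ± 2.35 CPM per kb) were lowest. On day 4 the control order was the same, with Fer2LCH at 2380.4 ± 151 and MtnC at 9.94 ± 2.00 CPM per kb. Among the 9801 genes ranked by level per kb, Fer2LCH moved from rank 158 to rank 42 and Fer1HCH from 214 to 79 in control midguts. In Hnf4i midguts on day 3, MtnA had the higher mean (705 ± 47.6 CPM per kb) beside Fer1HCH (604 ± 36.1), with libraries that just overlapped, and MtnE (159 ± 14.8 CPM per kb), MtnB (149 ± 24.7) and Ctr1B (135 ± 21.5) overlapped as well. On day 4 Ctr1B (445 ± 54.4 CPM per kb) stood above MtnE (269 ± 61.4) in these midguts.

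**Figure D1:**
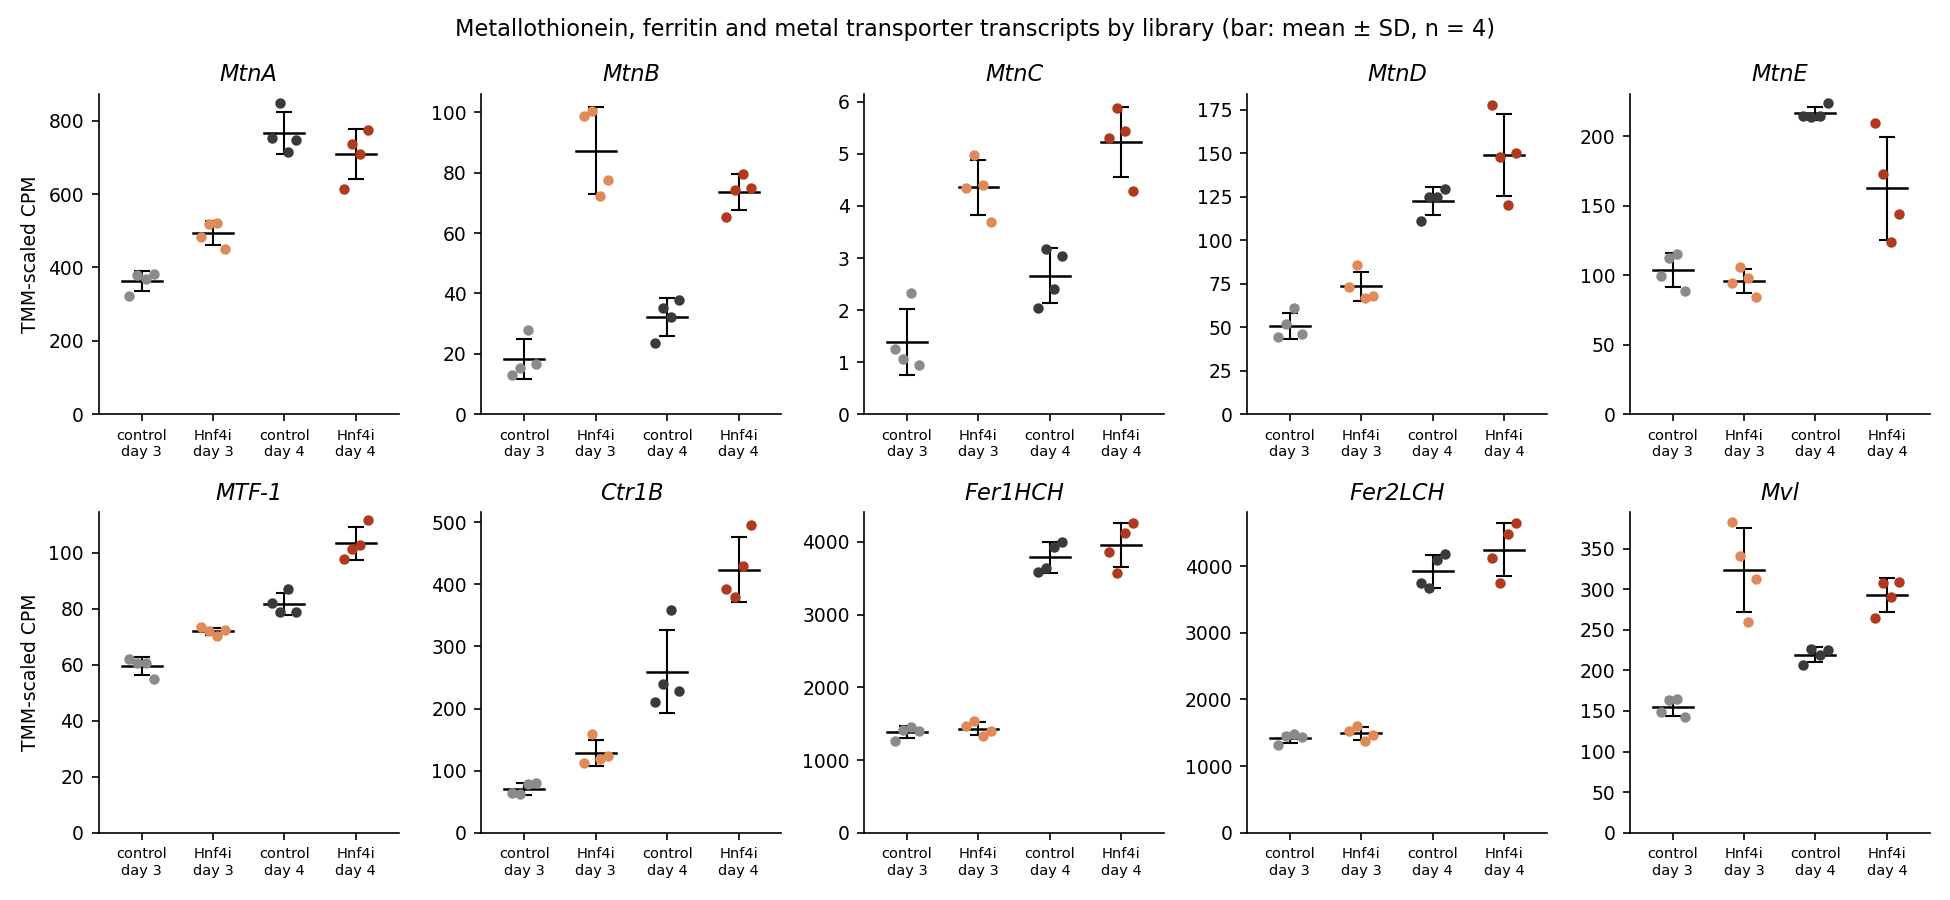
TMM-scaled CPM (y axis, from 0) of each of the 10 metal-handling genes in the 16 libraries; each point is a library, the long bar the group mean and the whiskers the SD (n = 4). Both ferritin genes rose with day at like levels in both genotypes, whereas MtnB, MtnC, MTF-1, Ctr1B and Mvl lay higher in all Hnf4i libraries than in all control libraries of the same day.

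The first comparison asks how transcripts of the control midgut changed as larvae passed from L2 to L3. Metal storage and uptake genes rose together: 9 of the 10 genes were called higher on day 4 and 0 were called lower, where a call needed an adjusted p-value under 0.05 in edgeR's quasi-likelihood test and a log2 fold change of at least 0.5 in size. Of all genes tested, 17.0% were called higher and 22.2% lower in this comparison, and the median log2 fold change was 1.07 over the 10 genes and 0.01 over all genes. For 8 of the 10, all 4 day 4 libraries lay above all 4 day 3 libraries, as they did for 29.1% of all genes tested, while for 29.9% they lay below. Fewer cells of a type and less RNA per cell cannot be told apart in these pooled midguts, and each level is a share of what its library held. With library totals alone in place of TMM the median of all genes fell by 0.29, the split of called genes moved from 1668 higher and 2176 lower to 901 and 3361, and 8 of the 10 genes were still called higher.

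In Hnf4i midguts the same passage raised 7 of the 10 genes and lowered 0, beside 18.8% of all genes called higher and 23.9% lower. The median log2 fold change over the 10 genes was 0.64, against -0.01 over all genes. For 7 genes the day 4 libraries all lay above those of day 3, beside 27.7% of all genes above and 30.7% below. MtnB, MtnC and Mvl were the genes not called, with log2 fold changes of -0.25, 0.26 and -0.15. The control and the Hnf4i comparison share no library, and the difference between them is the interaction given further on.

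The comparisons of Hnf4i with control midguts ask which metal genes respond to silencing of the receptor in enterocytes. On day 3, 5 of the 10 genes were called higher in Hnf4i midguts (MtnB, MtnC, MtnD, Ctr1B and Mvl) and 0 lower, while 1.51% of all genes were called higher and 2.46% lower. The Hnf4i libraries all lay above the control libraries for 7 genes, those 5 with MtnA and MTF-1, beside 8.32% of all genes above and 9.05% below. On day 4, 3 of the 10 were called higher (MtnB, MtnC and Ctr1B) and 0 lower, while 5.46% of all genes were called higher and 6.71% lower. The groups did not overlap for 6 genes on day 4, of which MtnE lay lower and MtnB, MtnC, MTF-1, Ctr1B and Mvl higher in Hnf4i midguts, beside 12.1% of all genes lower and 12.2% higher. The median log2 fold change over the 10 genes was 0.49 on day 3 and 0.31 on day 4, beside 0.01 and 0.02 over all genes. With library totals alone the day 4 split of all called genes moved from 535 higher and 658 lower to 763 and 517, that of day 3 from 148 higher and 241 lower to 213 and 212, and 4 and 6 of the 10 genes were called higher on those days.

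**Figure D2:**
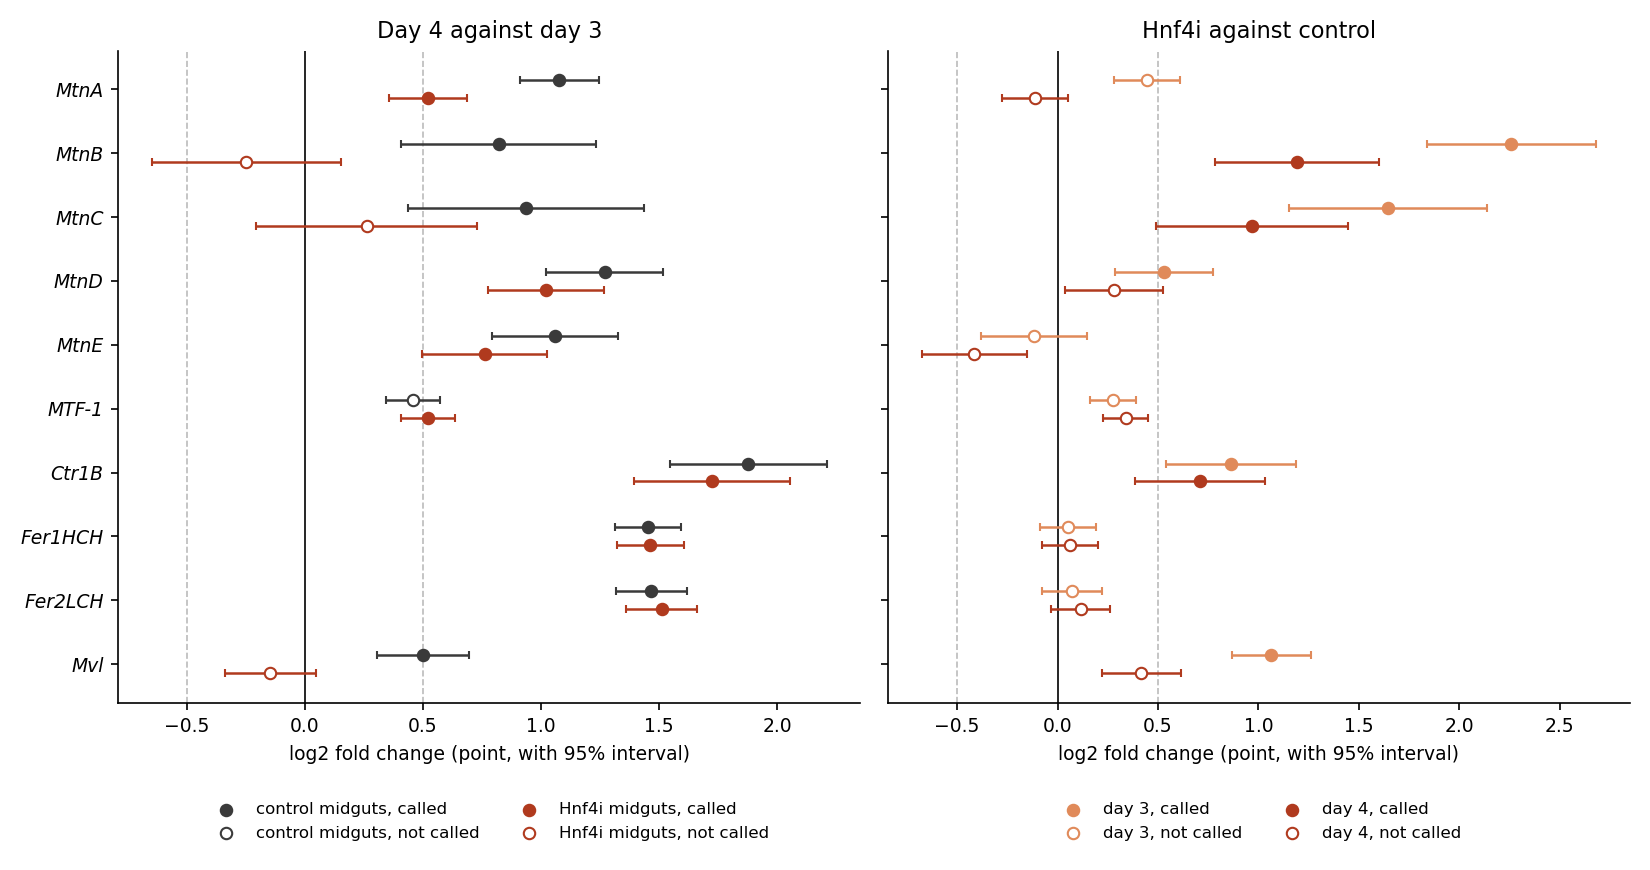
Log2 fold change (x axis, point) with its 95% interval (bar) for each of the 10 genes (y axis), for day 4 against day 3 in each genotype (left) and Hnf4i against control on each day (right); filled points were called and dashed lines mark the fold minimum of 0.5. Day changes of the ferritin genes are close in both genotypes (1.45 to 1.51), while those of MtnA, MtnB and Mvl are larger in control midguts.

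MtnB showed the largest response to silencing among the 10 genes. On day 3 it stood at 13.1, 15.3, 27.9 and 16.6 CPM in the control libraries and at 98.7, 100.5, 72.3 and 77.6 CPM in the Hnf4i libraries. Every Hnf4i library lay above every control library, and control replicate 3 was the highest of its group. Silencing raised MtnB 4.78-fold (log2 fold change 2.26, SE 0.20, adjusted p = 4.06e-07), which placed it at the 99.7th percentile of all log2 fold changes of that comparison. On day 4 it stood at 23.6, 35.1, 32.3 and 37.7 CPM in control and at 65.3, 74.3, 79.7 and 74.8 CPM in Hnf4i libraries. The groups were again apart, by 2.28-fold (log2 fold change 1.19, SE 0.19, adjusted p = 0.000179). MtnB rose with day in control midguts (log2 fold change 0.82, SE 0.19, adjusted p = 0.00142), although the groups overlapped through day 3 replicate 3, and stood at -0.25 (SE 0.19, adjusted p = 0.265) in Hnf4i midguts. The silencing effect was smaller on day 4 by 1.07 on the log2 scale (SE 0.27, adjusted p = 0.0210).

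MtnC, the least abundant of the metallothionein transcripts among the 10 genes, moved in the direction of MtnB at a level of only 59 to 328 counts per library. On day 3 it stood at 1.26, 1.06, 2.32 and 0.939 CPM in control and at 4.35, 4.98, 4.41 and 3.70 CPM in Hnf4i libraries. By day 4 the levels were 2.04, 3.18, 2.40 and 3.04 CPM in control and 5.31, 5.88, 5.44 and 4.30 CPM in Hnf4i libraries. The genotypes did not overlap on either day, and control day 3 replicate 3 was again the highest of its group. MtnC was higher in Hnf4i midguts by 1.64 on day 3 (SE 0.23, adjusted p = 0.000124) and 0.97 on day 4 (SE 0.23, adjusted p = 0.00392). It rose by 0.94 with day in control midguts (SE 0.24, adjusted p = 0.00227) and stood at 0.26 in Hnf4i midguts (SE 0.22, adjusted p = 0.313). The interaction was -0.68 (SE 0.32, adjusted p = 0.242) and was called only without control day 3 replicate 3 (-1.04, adjusted p = 0.0173).

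MtnA, the most abundant metallothionein transcript, rose with day in both genotypes and more so in control midguts. It stood at 322, 379, 369 and 381 CPM in control and at 482, 518, 522 and 451 CPM in Hnf4i libraries on day 3. Its levels on day 4 were 754, 848, 714 and 746 CPM in control and 615, 736, 709 and 774 CPM in Hnf4i libraries. The genotypes were apart on day 3 and overlapped on day 4. The day change was 1.08 (SE 0.08, adjusted p = 2.78e-09) in control and 0.52 (SE 0.08, adjusted p = 1.45e-05) in Hnf4i midguts. The latter lies close to the fold minimum and was not called without Hnf4i day 3 replicate 4 (0.48) or day 4 replicate 4 (0.48). Silencing gave 0.44 on day 3 (SE 0.08, adjusted p = 0.000972), under the fold minimum, and -0.11 on day 4 (SE 0.08, adjusted p = 0.321). The difference between these effects was called (interaction -0.56, SE 0.11, adjusted p = 0.00432), but not without Hnf4i day 4 replicate 1 (-0.49, under the fold minimum).

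MtnD and MtnE, the head-to-head pair, both rose with day but parted under silencing. MtnD stood at 44.2, 51.8, 61.1 and 46.3 CPM in control and at 73.3, 85.5, 66.6 and 68.1 CPM in Hnf4i libraries on day 3. The day 4 libraries held 111, 125, 125 and 129 CPM in control and 178, 148, 120.3 and 150.2 CPM in Hnf4i libraries. MtnD was apart between the genotypes on day 3 only, where it was higher in Hnf4i midguts by 0.53 (SE 0.12, adjusted p = 0.00630). That call was lost without control replicate 1 (0.47), control replicate 4 (0.49) or Hnf4i replicate 2 (0.45) of day 3, and on day 4 the difference was 0.28 (SE 0.12, adjusted p = 0.0801). The day change of MtnD was 1.27 (SE 0.12, adjusted p = 5.28e-08) in control and 1.02 (SE 0.12, adjusted p = 6.32e-07) in Hnf4i midguts.

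MtnE stood at 99.5, 113, 115 and 88.6 CPM in control and at 94.8, 106, 98.4 and 84.5 CPM in Hnf4i libraries on day 3. On day 4 the gene stood at 215, 214, 215 and 224 CPM in control and at 209, 173, 124 and 144 CPM in Hnf4i libraries. The genotypes overlapped on day 3, and on day 4 each Hnf4i library lay below each control library, with replicate 1 the closest to them. MtnE was the only gene of the 10 whose Hnf4i libraries all lay lower on a day; silencing gave it a value of -0.12 on day 3 (SE 0.12, adjusted p = 0.711) and -0.41 on day 4 (SE 0.12, adjusted p = 0.0199), the latter under the fold minimum. It was called lower on day 4 without Hnf4i replicate 1 (-0.56, adjusted p = 0.00114). Without the 4 libraries with fat body transcripts MtnE stood at -0.78. That fit leaves Hnf4i day 4 with a single library whose spread is assumed to be that of the other groups. The day change was 1.06 (SE 0.13, adjusted p = 1.18e-06) in control and 0.76 (SE 0.13, adjusted p = 4.21e-05) in Hnf4i midguts. Without the same 4 libraries the latter was 0.37, under the fold minimum.

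The count ratio of MtnD to MtnE within a library removes the scaling between libraries. In control midguts it was 0.489 ± 0.0439 on day 3 and 0.565 ± 0.0316 on day 4 (SD, n = 4), and in Hnf4i midguts 0.766 ± 0.0609 and 0.929 ± 0.0941. The ratio of every Hnf4i library lay above that of every control library on both days (exact two-sided permutation p = 0.0286 on each day, the smallest that 4 against 4 can give; adjusted p = 0.0381 over 4 comparisons). Between the days the groups were apart in Hnf4i midguts (exact permutation p = 0.0286) and overlapped in control midguts (exact permutation p = 0.0857). This test was chosen after the values of both genes had been seen.

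**Figure D3:**
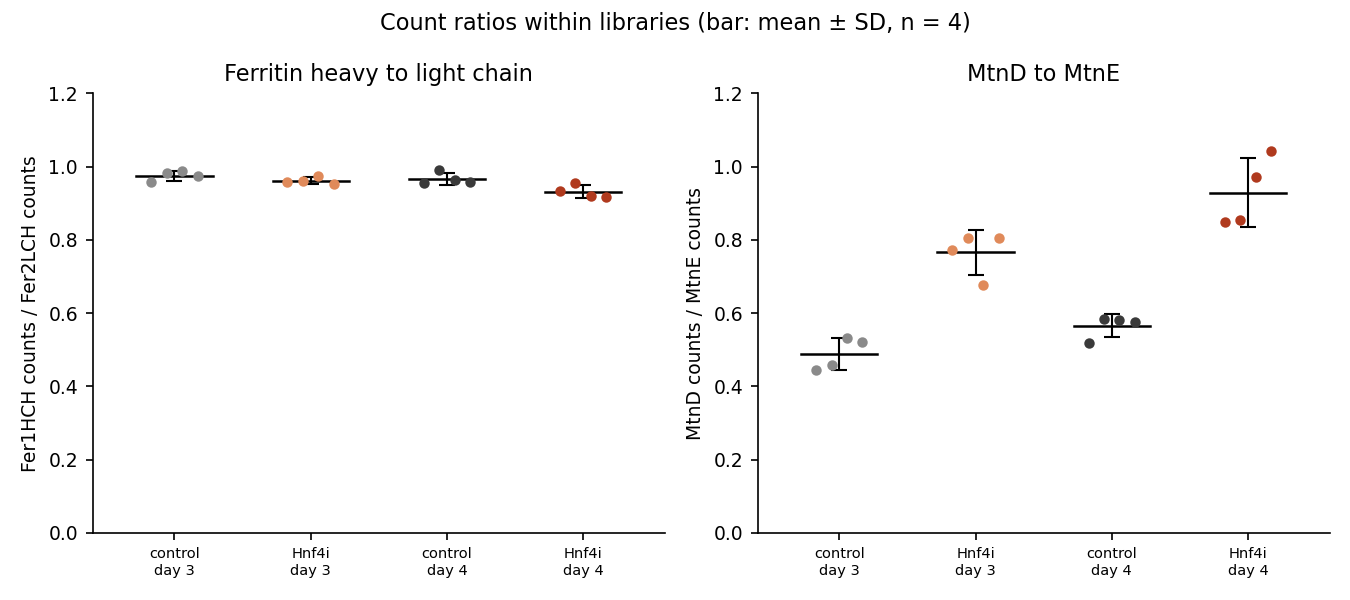
Count ratios within each library (y axes, from 0) of Fer1HCH to Fer2LCH (left) and of MtnD to MtnE (right) in the 4 groups; points are libraries, the long bar is the mean and the whiskers the SD (n = 4). The ferritin ratio stays between 0.918 and 0.990, whereas the MtnD to MtnE ratio is 0.444 to 0.584 in control and 0.678 to 1.04 in Hnf4i libraries.

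As a sum, the 5 metallothionein transcripts averaged 537 CPM in control (479.8 to 575 over the libraries) against 754 CPM in Hnf4i midguts (685 to 815) on day 3. On day 4 the sums were 1139.5 CPM (1088 to 1224) against 1099 CPM (1038 to 1147). The genotypes were thus apart on day 3 and overlapped on day 4. Within that sum, the share of MtnB was higher in every Hnf4i library than in every control library on both days. Per kb of exon, MtnA held 56.9 ± 3.35% of it in control and 54.4 ± 2.42% in Hnf4i midguts on day 3. MtnB held 3.38 ± 0.959% in control and 11.5 ± 1.47% in Hnf4i midguts on day 3, and 2.80 ± 0.469% and 6.42 ± 0.808% on day 4. MtnE held 18.9 ± 1.69% in control and 12.2 ± 0.328% in Hnf4i midguts on day 3, and 18.3 ± 0.925% and 13.6 ± 2.75% on day 4, when the libraries overlapped (16.9 to 18.8% against 11.3 to 17.3%). MtnA, at 55.6 ± 2.17% and 51.5 ± 5.34% on day 4, overlapped on both days. Shares add up to a whole, so that a larger share of MtnB lowers those of the others, and they are given without a test.

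**Figure D4:**
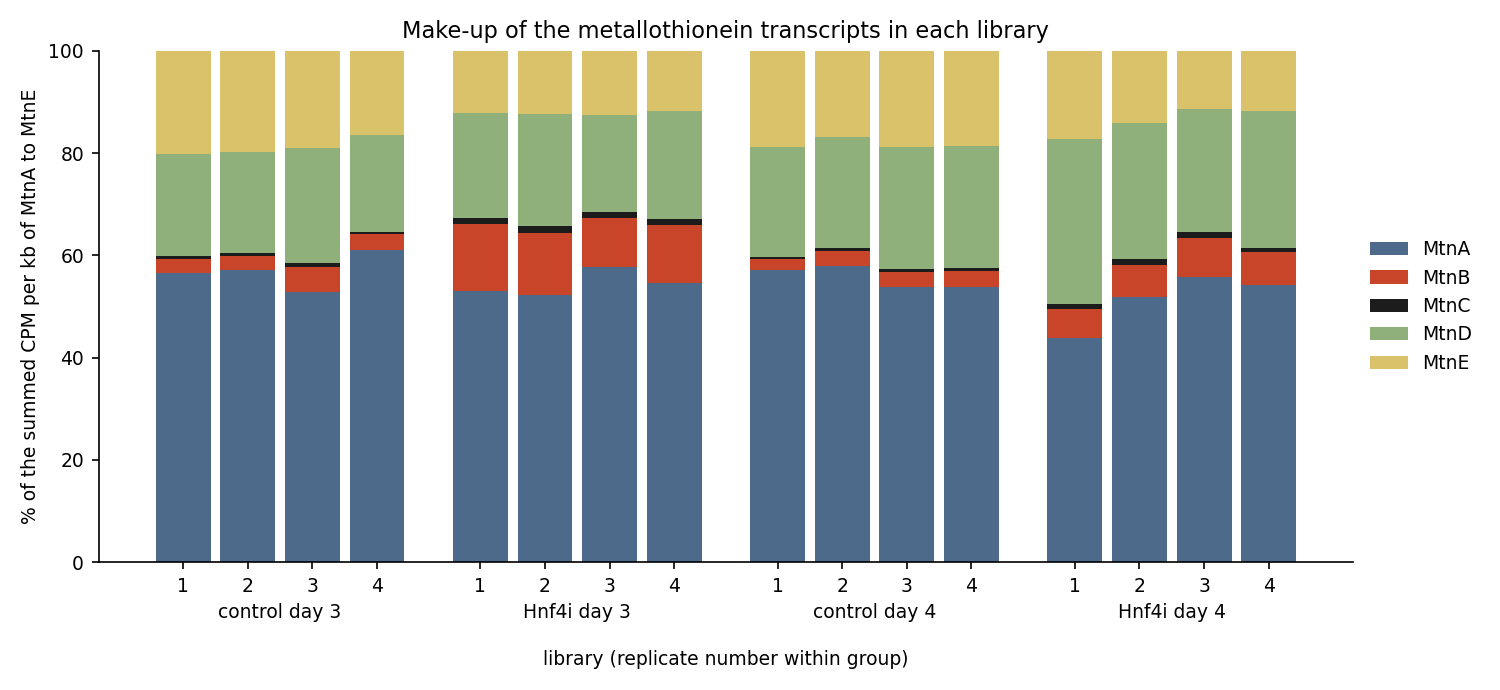
Share (y axis, percent) of each of MtnA to MtnE in their summed CPM per kb of exon, by library (x axis, replicate number within each of the 4 groups). The band of MtnB is wider in all 8 Hnf4i libraries than in the 8 control libraries, and the band of MtnC is thin throughout.

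MTF-1, the regulator, differed little among replicates and stayed near the fold minimum or under it. It stood at 61.9, 60.5, 60.5 and 54.8 CPM in control and at 73.3, 71.9, 70.3 and 72.4 CPM in Hnf4i libraries on day 3. At L3 the values were 82.0, 78.7, 87.1 and 79.0 CPM in control and 97.7, 101, 103 and 112 CPM in Hnf4i libraries. No groups overlapped in any of these comparisons. Silencing gave 0.28 on day 3 (SE 0.05, adjusted p = 0.00236) and 0.34 on day 4 (SE 0.05, adjusted p = 0.000135), both under the fold minimum. The day change was 0.46 (SE 0.05, adjusted p = 9.46e-07) in control midguts, under the minimum, and 0.52 (SE 0.05, adjusted p = 1.71e-07) in Hnf4i midguts, which was called but not without Hnf4i day 4 replicate 4 (0.48). The interaction was 0.06, with a 95% interval of -0.10 to 0.22.

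Ctr1B had the largest day change of the 10 genes and was higher in Hnf4i midguts on both days. On day 3 it stood at 63.3, 61.8, 77.8 and 79.3 CPM in control and at 113, 158, 118 and 124 CPM in Hnf4i libraries. On day 4 its values were 211, 239, 358 and 229 CPM in control and 392, 379, 429 and 495 CPM in Hnf4i libraries. The genotypes did not overlap on either day, although control day 4 replicate 3, the control library with the most fat body transcripts, came closest to the Hnf4i libraries. Ctr1B rose 3.67-fold in control (log2 fold change 1.88, SE 0.16, adjusted p = 1.55e-08) and 3.30-fold in Hnf4i midguts (1.72, SE 0.16, adjusted p = 3.56e-08). Silencing raised it by 0.86 on day 3 (SE 0.15, adjusted p = 0.00108) and 0.71 on day 4 (SE 0.15, adjusted p = 0.00212). Without the 4 libraries with fat body transcripts, which leaves a single Hnf4i day 4 library, the day 4 value was 0.95. The effects of silencing did not differ detectably between the days (-0.15, 95% interval -0.61 to 0.30, adjusted p = 0.768).

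Mvl was higher in Hnf4i midguts most clearly on day 3. It stood at 149, 163, 165 and 143 CPM in control and at 383, 341, 259.6 and 313 CPM in Hnf4i libraries on that day. The L3 libraries stood at 207, 227, 218 and 225 CPM in control and at 264, 308, 291 and 309 CPM in Hnf4i libraries. Both days kept the genotypes apart. Mvl was 2.09-fold higher on day 3 (log2 fold change 1.06, SE 0.09, adjusted p = 3.54e-07), and on day 4 its log2 fold change of 0.42 (SE 0.09, adjusted p = 0.00258) was under the fold minimum. The difference between the days was called (interaction -0.65, SE 0.13, adjusted p = 0.00476). With day Mvl rose by 0.50 in control midguts (SE 0.09, adjusted p = 0.000142), a value so close to the fold minimum that it was not called with DESeq2, with RLE factors (both 0.499), with library totals alone (0.21), or without control day 3 replicate 1 or 4 or control day 4 replicate 2 or 4 (0.46 to 0.49). In Hnf4i midguts the day change of Mvl was -0.15 (SE 0.09, adjusted p = 0.177).

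The ferritin genes rose with day by like amounts in both genotypes, and neither was called in the comparisons of Hnf4i with control midguts. Fer1HCH stood at 1262, 1418, 1461 and 1396 CPM in control and at 1464, 1536, 1335 and 1402 CPM in Hnf4i libraries on day 3. At L3 it lay at 3584, 3638, 3932 and 4007 CPM in control and at 3858, 3577, 4124 and 4263 CPM in Hnf4i libraries. All day 4 libraries lay far above all day 3 libraries, and the genotypes overlapped on both days. Fer1HCH rose 2.74-fold in control (log2 fold change 1.45, SE 0.07, adjusted p = 1.38e-11) and 2.76-fold in Hnf4i midguts (1.46, SE 0.07, adjusted p = 1.61e-11). Silencing gave 0.05 on day 3 (95% interval -0.09 to 0.19, adjusted p = 0.773) and 0.06 on day 4 (-0.08 to 0.20, adjusted p = 0.538).

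Fer2LCH stood at 1319, 1445, 1478 and 1433 CPM in control and at 1527, 1597, 1370.5 and 1471 CPM in Hnf4i libraries on day 3. Day 4 values were 3749.6, 3675, 4086 and 4181 CPM in control and 4128, 3747, 4478 and 4643 CPM in Hnf4i libraries. The light chain thus followed the heavy chain library by library. It rose by 1.47 (SE 0.07, adjusted p = 2.35e-11) in control and 1.51 (SE 0.07, adjusted p = 2.17e-11) in Hnf4i midguts, and silencing gave 0.07 on day 3 (95% interval -0.08 to 0.22, adjusted p = 0.671) and 0.12 on day 4 (-0.03 to 0.26, adjusted p = 0.248).

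The ratio of heavy to light chain counts was 0.975 ± 0.0135 in control and 0.962 ± 0.00890 in Hnf4i midguts on day 3, and 0.967 ± 0.0158 and 0.932 ± 0.0166 on day 4 (SD, n = 4). On day 4 the ratio of every Hnf4i library lay below that of every control library (difference of log2 ratios -0.05, exact two-sided permutation p = 0.0286, the smallest possible), but the adjusted p over 4 comparisons was 0.114. The other comparisons overlapped, with exact permutation p-values of 0.457 for day in control midguts, 0.0571 for day in Hnf4i midguts and 0.171 for silencing on day 3.

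Across the interaction of silencing and day, 0 of the 10 genes were called higher and 3 lower (MtnA, MtnB and Mvl), beside 2.59% of all genes called higher and 2.44% lower, with a median of -0.27 over the 10 genes and -0.01 over all genes. For each of these 3 genes the log2 fold change of Hnf4i against control was larger on day 3 than on day 4. The interaction uses all 4 groups and so shares every library with the comparisons above.

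The values that rest on day 4 were recomputed without the 4 libraries with the highest fat body sums, a choice made after seeing the markers. That fit leaves a single library in Hnf4i day 4, so p-values and calls that rest on it are not given. Between the genotypes on day 4, MtnB stood at 1.33 and MtnC at 1.01. The interaction of MtnB was -0.92, and those of MtnA, Mvl and MtnE were -0.56, -0.63 and -0.67. Both ferritin genes rose with day as before, by 1.53 and 1.59 in Hnf4i midguts, and silencing gave them 0.17 and 0.24 on day 4. MtnA (-0.11), MtnD (0.01), MTF-1 (0.39) and Mvl (0.43) stayed under the fold minimum between the genotypes on day 4, as with all libraries. In replicate 3, the Hnf4i day 4 library kept in that fit, the ferritin ratio was 0.921 and the MtnD to MtnE ratio 0.971. Both ratios lay outside the range of the control libraries. In that library MtnD and MtnE were the lowest of their group and MtnB the highest. The part of the fat body transcripts in these values was otherwise not tested.

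Other genes of copper handling gave no call under silencing with all libraries. Of 10 listed (MtnF, Ctr1A, Ctr1C, ATP7, Atox1, Ccs, Sod1, Scox, Cox17 and Cox11) 8 were tested, and 0 were called in either direction on day 3, on day 4 or in the interaction, with medians of 0.01, -0.14 and -0.22. With so few genes, 0 calls are also close to the shares of all genes called (1.51 and 2.46% on day 3, 5.46 and 6.71% on day 4). With day, 1 was called higher and 2 lower in control midguts, near the shares of 17.0 and 22.2% over all genes, and 0 higher and 3 lower in Hnf4i midguts (18.8 and 23.9% over all genes). The genes with the lowest values were Cox17, a copper chaperone for mitochondrial cytochrome c oxidase, at -0.84 (SE 0.10) in control and -0.85 in Hnf4i midguts, Scox at -0.56 in control midguts and Cox11 at -0.76 in Hnf4i midguts, both also needed to deliver copper to that oxidase. Without the 4 libraries with fat body transcripts, Cox11 stood at -0.54 for silencing on day 4 and at -0.55 in the interaction. Both values were past the fold minimum in size, against -0.27 for each with all libraries. That fit holds a single Hnf4i day 4 library.

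Among zinc transporter genes, calls were mostly of the Zip importers. Of 7 ZnT exporter genes 6 were tested, and the single call was ZnT35C with day in Hnf4i midguts (3.95, SE 1.44, adjusted p = 0.0238). That transcript stood at 0.0114 and 0.232 CPM in those groups, and without the 4 libraries its value was 1.64. Of 10 Zip genes 9 were tested, with 0 higher and 2 lower in Hnf4i midguts on each day, beside 2.46 and 6.71% of all genes called lower. Zip89B, which takes up dietary zinc, was lower by 0.64 on day 3 (SE 0.14, adjusted p = 0.00780) and by 0.66 on day 4 (SE 0.14, adjusted p = 0.00250). Zip42C.1 stood at -0.94 (SE 0.21, adjusted p = 0.00630) on day 3 and 0.51 on day 4 (interaction 1.45, adjusted p = 0.00432), and Zip71B at -0.61 (adjusted p = 0.0370) on day 4. Without the 4 libraries, which leaves a single Hnf4i day 4 library, Zip89B stood at -0.60 and Zip71B at -0.92. Zip48C stood at -1.16 in that fit, against -0.33 with all libraries, where its Hnf4i day 4 level spread widely (35.3 ± 16.3 CPM). With day, 3 Zip genes were called higher and 1 lower in each genotype, beside 17.0 and 22.2% of all genes in control and 18.8 and 23.9% in Hnf4i midguts. Zip99C, which is named for the zinc family but is known in flies to carry iron into the secretory pathway where ferritin is loaded, rose by 1.41 (SE 0.08, adjusted p = 2.36e-10) in control and 1.56 (SE 0.08, adjusted p = 8.32e-11) in Hnf4i midguts, and foi fell by 0.59 in control midguts.

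Among 11 other genes of iron handling 10 were tested. On day 3, 2 were called higher in Hnf4i midguts and 0 lower, and on day 4, 1 was higher and 2 lower, beside the shares of all genes given for these days. mfrn, the mitochondrial iron importer mitoferrin, was higher in Hnf4i midguts by 0.72 on day 3 (SE 0.06, adjusted p = 1.19e-07) and 0.92 on day 4 (SE 0.06, adjusted p = 2.49e-09), and Mco1, a multicopper oxidase gene, by 0.57 (SE 0.13, adjusted p = 0.00732) on day 3. Tsf1, the iron-binding transferrin of the hemolymph, was lower on day 4 by 0.88 (SE 0.26, adjusted p = 0.0171), with means of 23.1 CPM in control against 12.5 CPM in Hnf4i midguts. Irp-1B, named here after its value was seen, was lower on day 4 as well (-0.68, SE 0.05, adjusted p = 9.18e-09). Without the 4 libraries, which leaves a single Hnf4i day 4 library, Tsf1 stood at -0.80. In that fit mfrn stood at 0.99, Irp-1B at -0.61 and Mco4, another multicopper oxidase gene, at 0.58 (0.49 with all libraries). With day, Tsf1 rose by 5.40 in control and 4.02 in Hnf4i midguts, from means of 0.545 and 0.778 CPM on day 3. Mco3 fell by 5.59 and 5.38, to 0.0545 and 0.0727 CPM on day 4. Both genes were thus under 1 CPM on 1 of the days. In all, 3 genes of this list were called higher and 4 lower in control midguts, beside 17.0 and 22.2% of all genes. In Hnf4i midguts 1 was called higher and 3 lower, beside 18.8 and 23.9% of all genes.

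None of the 4 genes that mark or pattern the acid-secreting copper cells of the middle midgut (lab, dve, Ptx1 and Vha100-4) was called in any comparison in edgeR, with silencing medians of 0.26 on day 3 and 0.24 on day 4. Their values lay on both sides of 0 and several passed the p-value threshold under the fold minimum. Ptx1 stood at 0.42 (adjusted p = 7.12e-05) on day 3 and 0.37 (adjusted p = 0.000111) on day 4, dve at 0.31 (adjusted p = 0.00117) and 0.35 (adjusted p = 0.000128), and Vha100-4, a subunit of the proton pump, at -0.32 (adjusted p = 0.00123) on day 4. Of 9 antioxidant genes 0 were called higher and 2 lower in Hnf4i midguts on each day, beside 2.46 and 6.71% of all genes lower. Catalase (Cat) stood at -0.88 on day 3 (SE 0.06, adjusted p = 1.75e-08) and -1.32 on day 4 (SE 0.06, adjusted p = 6.15e-11), and Gclc, the catalytic subunit of the enzyme that starts glutathione synthesis, at -0.57 (adjusted p = 0.00172) and -0.78 (adjusted p = 3.67e-05) on those days. Without the 4 libraries, which leaves a single Hnf4i day 4 library, Cat and Gclc stood at -1.34 and -0.97 on day 4. With day, 4 of the 9 antioxidant genes were called higher and 0 lower in control midguts, beside 17.0 and 22.2% of all genes. In Hnf4i midguts 3 were called higher and 0 lower, beside 18.8 and 23.9% of all genes. Cat rose with day by 0.99 in control and 0.55 in Hnf4i midguts.

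**Figure D5:**
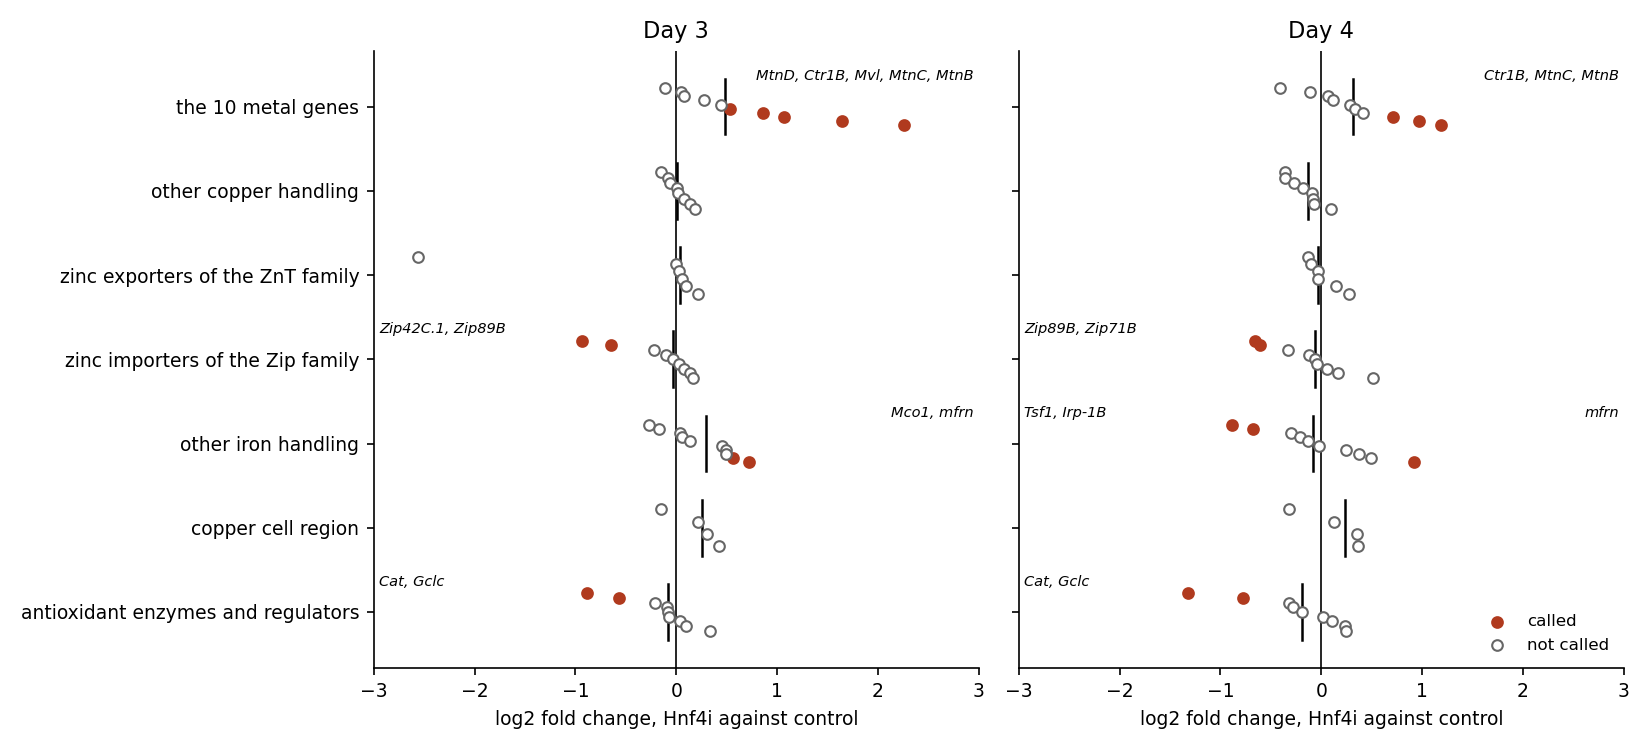
Log2 fold change of Hnf4i against control (x axis) on day 3 (left) and day 4 (right) for the 10 metal-handling genes and each tested gene of 6 further lists (y axis); points are genes, filled where called and then named beside the row, and the vertical bar of each row is its median. Called genes of the 10 lie to the right on both days, and those of the Zip and antioxidant lists to the left.

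Over the 16 libraries, the genes whose log2 CPM followed MtnB most closely, among 5985 genes that averaged 10 CPM or more in at least 1 group, were Mvl (Pearson r = 0.961), the defensin-like peptide gene Drsl2 (0.946), CG2246 (0.919), the glucose-6-phosphate dehydrogenase gene Zw (0.909) and Aptx (0.892). Drsl2 averaged 0.322 CPM in control against 29.2 CPM in Hnf4i midguts on day 3, and 0.908 against 29.5 CPM on day 4. For Fer1HCH they were Fer2LCH (0.999), the amino acid transporter gene sbm (0.997), Oatp74D (0.995), the lipase gene mag (0.995) and Gdi (0.993). These coefficients are descriptive: the points share 4 groups, library scaling and, for the ferritin genes, the step between the days.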

How the data were processed

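Per the labels and the study's methods, the authors prepared stranded libraries of polyadenylated RNA. The submitters' processing notes name the BDGP6 build, Trimmomatic 0.39, STAR 2.7.10b, FastQC 0.11.7 and MultiQC 1.12. The deposited count table of the authors holds whole read counts for 24254 entries, and their deposited CPM values equal those counts divided by library totals (largest difference 4.91e-11). For this report CPM were rescaled by TMM. The study's software list also names Salmon, without tying it to these libraries, and neither the strand setting nor the annotation behind the counts is given in the sources used here. Columns of log2 fold change and adjusted p-value that the authors deposited (DESeq2 1.49.3, R 4.5.1) were not used. Entries that are not genes (6381, 0.0365 to 0.0489% of counts) were left out. Gene positions come from the Ensembl 115 annotation.

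Counts were fitted in R 4.3.3 with edgeR 4.0.16: filterByExpr (minimum count 10, minimum total 15), TMM factors, 1 mean per group over all 16 libraries, glmQLFit and glmQLFTest, two-sided, with Benjamini-Hochberg adjustment over the 9801 genes tested. SE is a standard error on the log2 scale, and intervals are at 95%. Ratios within libraries were compared by exact permutation tests. Log2 CPM for likeness used a prior count of 2. Alternatives were DESeq2 1.42.0, RLE factors, library totals, no filter, no fold minimum, a replicate block, fits with only the groups compared, leaving out each library, and leaving out libraries with fat body transcripts.

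The genes named are Hnf4, the 10 metal genes, at most the 2 called genes of largest change per further list and comparison, and the 5 genes most like MtnB and Fer1HCH. The 10 genes and all lists were chosen with earlier results of these data known. Sequencing depth was 44546248 to 83418453 counts per library. The steps were tested on simulated data. No pair of libraries of a group agreed within sampling noise. Larvae were taken from vials to form the replicates, but how vials were divided among the pools is not clear from the sources used here, so p-values measure the spread between these pools.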

Additional observations from a re-analysis of the deposited data

Results flagged for a closer look

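In control midguts on day 4, MtnE stood at 223.9 CPM in replicate 4 while the other replicates lay at 214 to 215 CPM, so that replicate 4 was far from the rest on the scale of the group's own range. This was 1 of 40 groups examined (10 genes in 4 groups), and chance alone gives about 2.

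The silencing effect differed between the days for 3 genes by the test of the difference itself, in edgeR's quasi-likelihood test over all 16 libraries. For MtnA the effect on day 4 minus that on day 3 was -0.56 on the log2 scale (-0.55504), with 0.44 on day 3 and -0.11 on day 4, and the value fell under the fold minimum without Hnf4i day 4 replicate 1 (-0.49). For MtnB it was -1.07 (-1.06764), with 2.26 on day 3 and 1.19 on day 4. Without the 4 libraries with fat body transcripts the value of MtnB was -0.92, in a fit with a single Hnf4i day 4 library. For Mvl it was -0.65 (-0.646187), with 1.06 on day 3 and 0.42 on day 4.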

How the results depend on the processing

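Of 810 recomputed log2 fold changes of the 10 genes, 770 kept their direction and their side of the threshold, 21 lost a call, 7 gained one and 12 changed sign. All sign changes were in interactions that were not called. That of Ctr1B turned to 0.0895 without the libraries with fat body transcripts and ranged from -0.242 to 0.0414 (positive without control day 4 replicate 3) with each library left out, that of Fer1HCH turned to -0.00947 with no filter on low counts and ranged from -0.0287 to 0.0550, and that of Fer2LCH ranged from -0.00366 to 0.0979. With no minimum on the fold, 6 genes were called on day 4 between genotypes (5 higher, 1 lower) in place of 3. The share of all genes called without that minimum was not computed, so this count cannot be set beside it. Leaving out each library gave 8 to 9 called genes for day in control, 5 to 7 for day in Hnf4i, 4 to 5 for silencing on day 3, 3 to 4 on day 4 and 2 to 4 for the interaction. Without the libraries with fat body transcripts, 8 genes were called with day in control midguts. Counts that rest on the single Hnf4i day 4 library left in that fit are not given. Library totals alone, which shift the median of all genes by -0.29 and -0.28 with day and by 0.08 and 0.12 with silencing, ended the calls of MtnA (0.26) and MTF-1 (0.26) with day in Hnf4i midguts and added calls for MtnB there (-0.51), for MtnA on day 3 (0.51) and for Mvl on day 4 (0.52); the lower value of MtnB is relative to that shift. Mvl with day in control midguts was not called with only the groups compared in the fit (0.47). The difference of log2 ferritin ratios on day 4 ranged from -0.06 to -0.04 with each library left out. The same replicate numbers occur in every group, but samples that share a number did not deviate together (of 16 pairs, 0 had a correlation over 0.1, range -0.17 to 0.09). The replicate block gave 9, 7, 5, 3 and 3 called genes, as without it, and 3815, 4140, 383, 1157 and 484 calls among all genes, against 3844, 4181, 389, 1193 and 493. The cause of these changes was not tested. Counts limit MtnC most, at 59 to 328 per library.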

Other observations

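Single libraries stood apart for several of the metallothioneins at once. Control day 3 replicate 3 was the highest of its group for MtnB (27.9 CPM, against 13.1 to 16.6 CPM), MtnC (2.32 CPM, against 0.939 to 1.26 CPM) and MtnD (61.1 CPM, against 44.2 to 51.8 CPM). It was also the highest for MtnE, by little (115 CPM, against 88.6 to 113 CPM), but not for MtnA. Without it, the day 3 effect of silencing was 2.54 for MtnB and 2.01 for MtnC. Hnf4i day 4 replicate 1 was the highest of its group for MtnD (178 CPM) and MtnE (209 CPM) and the lowest for MtnA (615 CPM) and MtnB (65.3 CPM).

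The remaining metallothionein gene, MtnF, was near background, at 0.0404 CPM in control against 0.0185 CPM in Hnf4i midguts on day 3. On day 4 it stood at 0.0111 CPM against 0 counts, and it was not tested. The third ferritin gene, Fer3HCH, was at or below 0.0257 CPM in every group.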
